A study of Mus musculus with 4 samples.

Results

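The mammalian circadian clock was examined through 10 of its genes, listed in the data under the symbols ARNTL, CLOCK, PER1, PER2, PER3, CRY1, CRY2, NR1D1, NR1D2 and DBP and written below in mouse spelling. They are the core loop of the clock and a direct output. All 10 were listed among 14123 genes at 7 days post injury (dpi), and 8 were listed among 11470 genes at 21 dpi, where Per3 and Nr1d2 had no row. Of 14717 genes listed at either time point, 10876 were listed at both.

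RNA-seq was performed on spinal cord segments containing the lesion site of male targeted replacement (TR) mice, in which the coding region of human ApoE3 or human ApoE4 stands in place of the mouse gene. Mice aged 3 to 5 months at injury received a contusion of 50 kdyne at the ninth thoracic vertebra, and all 4 groups were injured. The groups were ApoE3 at 7 dpi, ApoE4 at 7 dpi, ApoE3 at 21 dpi and ApoE4 at 21 dpi, each with 3 mice combined into 1 deposited value per gene. No uninjured group was analysed here.

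The values are FPKM, fragments normalized to transcript length and to library size, so levels of different genes can be set side by side. With 1 value per group there is no spread between mice. No test could be run on these values, and no difference given here has a replicate check. The p-values and q-values deposited by the authors were not used. The number of reads behind each value is unknown. A ratio is log2((FPKM + 1)/(FPKM + 1)), which understates differences of genes with low values, minus the median ratio of all genes whose mean FPKM was 1 or more. That median was 0.00 for ApoE3 over ApoE4 at 7 dpi but -0.42 at 21 dpi, where 93.8% of listed genes were lower in ApoE3 before centring. For 21 over 7 dpi it was 0.09 in ApoE3 and 0.53 in ApoE4. A gene was counted as higher or lower when its centred ratio passed a fold of 1.3, which is 0.38 on the log2 scale. Whether the values of both time points were normalized together is not stated in the sources used here, and this bears on every level compared between 7 and 21 dpi.

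The genotype of the value columns was taken from the name given to each comparison, which puts ApoE3 first. The numbering of the columns runs the other way, and read by that numbering the values named ApoE3 and ApoE4 would change places at both time points.

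In the clock, the transcription factors ARNTL and CLOCK form a pair that binds E-box sequences and drives the Per and Cry genes, whose proteins return to the nucleus and repress that pair. A second loop runs through the nuclear receptors encoded by Nr1d1 and Nr1d2, which repress Arntl at ROR elements (RORE), and the output factor DBP acts at D-box sequences. The RNAs cycle over the day in most tissues, spinal cord included, with Dbp, Nr1d1 and the Per genes peaking in a different part of the day from Arntl. The mice were housed in a cycle of light and dark, and the hour of day at which each tissue was collected is not given in the sources used here. Its part in the values below was not tested.

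The activators were at similar levels in both genotypes at 7 dpi. Arntl, which encodes the partner of CLOCK, had 60.1 FPKM for ApoE3 and 64.1 for ApoE4 at 7 dpi, and 51.1 in ApoE3 and 79.4 in ApoE4 at 21 dpi. Clock had 128 FPKM for ApoE3 and 119.7 for ApoE4 at 7 dpi, then 76.6 in ApoE3 and 114 in ApoE4 at 21 dpi. For both genes the ApoE3 group at 21 dpi held the lowest of the 4 values.

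The period genes encode repressors that enter the nucleus with the cryptochromes. Per1 had 37.5 FPKM for ApoE3 and 44.8 for ApoE4 at 7 dpi, against 55.2 in ApoE3 and 63.4 in ApoE4 at 21 dpi. Per2 was the lowest of the listed members in every group, with 10.4 and 11.9 FPKM in ApoE3 and ApoE4 at 7 dpi and 12.6 and 14.5 at 21 dpi. Per1 and Per2 shared an order of the 4 groups, with ApoE3 at 7 dpi lowest and ApoE4 at 21 dpi highest. Per3 had 91.6 FPKM for ApoE3 and 91.5 for ApoE4 at 7 dpi.

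Of the cryptochromes, Cry2 was the more abundant. It had 74.5 FPKM for ApoE3 and 66.5 for ApoE4 at 7 dpi, and 105 in ApoE3 and 145 in ApoE4 at 21 dpi. Cry1 had 18.1 FPKM for ApoE3 and 17.2 for ApoE4 at 7 dpi, compared to 28.7 in ApoE3 and 33.0 in ApoE4 at 21 dpi. For both cryptochromes, as for Per1 and Per2, each value at 21 dpi was above both values at 7 dpi. Higher values at 21 dpi were common, since before centring 44.1% of all genes were lower then in ApoE3 and 21.7% in ApoE4. In ApoE4 the centred ratios of 21 over 7 dpi of Per1 and Per2 were -0.03 and -0.26.

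Nr1d1, which encodes the repressor REV-ERBα, had 25.0 FPKM for ApoE3 and 22.8 for ApoE4 at 7 dpi, and 42.7 in ApoE3 and 40.4 in ApoE4 at 21 dpi. It was the one member listed at 21 dpi whose FPKM was higher in ApoE3 there. Its relative Nr1d2 had 19.6 FPKM for ApoE3 and 16.6 for ApoE4 at 7 dpi. In the GENCODE vM21 annotation 263 of the 3077 exon bases of Nr1d1 (8.55%) also lie in exons of Thra on the opposite strand. The library kit does not mark strand, so reads from those bases cannot be told apart. Thra itself had 263 and 252 FPKM in ApoE3 and ApoE4 at 7 dpi, and 485 and 589 at 21 dpi.

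Dbp, an output gene driven through E-boxes, had the widest range of any member. Its level was 62.8 FPKM for ApoE3 and 65.8 for ApoE4 at 7 dpi, and 195 in ApoE3 and 247 in ApoE4 at 21 dpi. The pairs of values at the 2 time points were well apart, while the genotypes lay close together at 7 dpi. Dbp shares 539 of 2993 exon bases (18.0%) with Sphk2 on the opposite strand, with the same limit as for Nr1d1. Sphk2 had 88.3 FPKM for ApoE3 and 92.2 for ApoE4 at 7 dpi and had no row at 21 dpi, so its part in the Dbp values at 21 dpi was not tested. Overlaps of Arntl, Cry2 and Tef covered at most 4.67% of their exon bases.

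**Figure D1:**
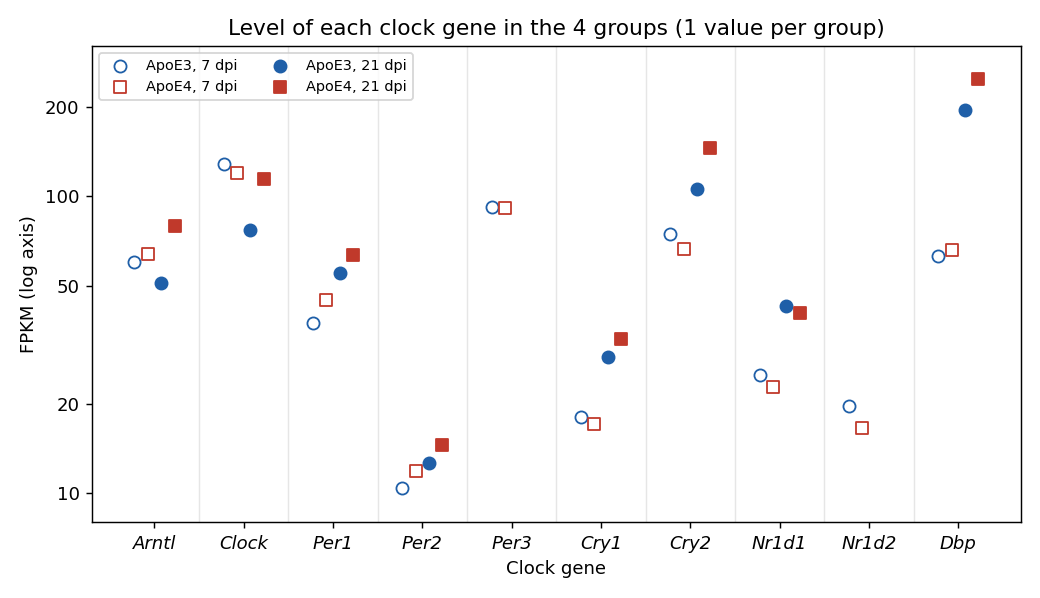
FPKM of the 10 clock genes on a log axis, with 1 point per group (circles ApoE3, squares ApoE4; open at 7 dpi, filled at 21 dpi). Dbp stands at 62.8 and 65.8 FPKM at 7 dpi and at 195 and 247 FPKM at 21 dpi, whereas Per3 and Nr1d2 have points at 7 dpi only.

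Ordered by FPKM, Clock was the highest member in both genotypes at 7 dpi, followed by Per3, Cry2, Dbp and Arntl, with Per1, Nr1d1, Cry1, Nr1d2 and Per2 below them. In ApoE3 Nr1d2 stood above Cry1, and in ApoE4 Cry1 above Nr1d2. At 21 dpi Dbp was the highest, with Cry2 and then Clock after it in both genotypes. Per1 and Arntl followed, with Per1 above Arntl in ApoE3 and Arntl above Per1 in ApoE4, then Nr1d1, Cry1 and Per2. The highest member exceeded the lowest 12.3-fold in ApoE3 and 10.02-fold in ApoE4 at 7 dpi, and 15.5-fold and 17.0-fold at 21 dpi. Without a spread, it cannot be said which neighbours in this order differ.

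The clock is known to act through short sequences in promoters and elsewhere, and promoters of a few of its genes are shown. Whether any match in them bears on the values was not tested. RefSeq promoters (build GRCm38.p6, 250 bases before to 50 after each start) matched 9 of the 10 members with 13 starts, all but Per2, and 16 of 20 other clock genes with 21 starts. For 27 of these 34 starts, including all with a match below and all shown, 30 bases after the start were found in a GENCODE vM21 transcript of the gene on the same strand, and for 7, those of Cry2 and Nr1d1 among them, they were not. The motifs searched, on both strands, were the E-box CACGTG, the D-box TTATGTAA and the half-site AGGTCA of the RORE, none of which contains another. The sequences below are the 250 bases before the start, 5′ to 3′ on the gene's own strand, with the E-box in capitals, or the D-box for Per3. Ciart and Dbp are shown as the clock genes with the highest ratios of 21 over 7 dpi, Per1 and Cry1 as the members with an E-box, and Per3 as the member with a D-box.
Ciart (chr3:95882229-95882478, minus strand): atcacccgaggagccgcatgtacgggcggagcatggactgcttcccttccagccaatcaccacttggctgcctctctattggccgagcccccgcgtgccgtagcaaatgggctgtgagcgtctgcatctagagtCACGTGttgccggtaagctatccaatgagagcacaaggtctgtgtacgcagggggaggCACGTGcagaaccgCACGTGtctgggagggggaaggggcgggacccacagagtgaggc
Per1, the first of 2 starts (chr11:69098699-69098948, plus strand): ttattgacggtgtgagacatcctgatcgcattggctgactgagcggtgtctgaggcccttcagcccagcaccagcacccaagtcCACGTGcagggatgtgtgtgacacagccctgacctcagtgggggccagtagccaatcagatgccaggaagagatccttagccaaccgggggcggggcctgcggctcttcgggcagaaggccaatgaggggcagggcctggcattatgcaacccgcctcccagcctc
Cry1 (chr10:85185055-85185304, minus strand): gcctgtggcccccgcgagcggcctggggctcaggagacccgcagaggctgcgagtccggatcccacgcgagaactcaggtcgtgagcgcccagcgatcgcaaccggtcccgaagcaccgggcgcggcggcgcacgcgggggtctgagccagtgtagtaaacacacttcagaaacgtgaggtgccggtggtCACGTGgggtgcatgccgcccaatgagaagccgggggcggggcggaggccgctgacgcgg
Per3 (chr4:151044666-151044915, minus strand): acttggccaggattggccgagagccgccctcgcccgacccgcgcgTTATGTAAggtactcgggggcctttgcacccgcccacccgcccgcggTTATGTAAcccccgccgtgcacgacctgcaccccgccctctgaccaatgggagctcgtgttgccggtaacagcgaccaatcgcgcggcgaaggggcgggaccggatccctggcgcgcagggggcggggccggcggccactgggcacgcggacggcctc
Dbp (chr7:45704997-45705246, plus strand): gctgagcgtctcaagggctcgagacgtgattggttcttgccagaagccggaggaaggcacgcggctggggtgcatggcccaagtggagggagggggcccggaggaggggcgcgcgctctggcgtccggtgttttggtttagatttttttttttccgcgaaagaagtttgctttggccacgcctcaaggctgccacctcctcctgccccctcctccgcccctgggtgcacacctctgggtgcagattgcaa

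An E-box was present at 2 of the 13 starts of members, in Per1 and Cry1, and at 4 of the 21 starts of other clock genes, in Ciart, Tef and Bhlhe41. Of all 32851 promoters of the same length, 7.15% held one. Ciart, which encodes a repressor of the ARNTL and CLOCK pair, had 3, starting at -116, -58 and -44 from the transcript start. The D-box occurred at 1 of the 13 starts, in Per3, where it was present 2 times, and at 1 of the 21, in Timeless, compared to 0.938% of all promoters. The half-site AGGTCA was found at 4 of the 13 starts, in Arntl, Clock, Per1 and Nr1d2, and at 2 of the 21, in Nampt and Nfil3, against 16.3% of all promoters. Dbp and Nr1d1 held none of the 3 motifs in this window, which says nothing about sites elsewhere in these genes.

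**Figure D2:**
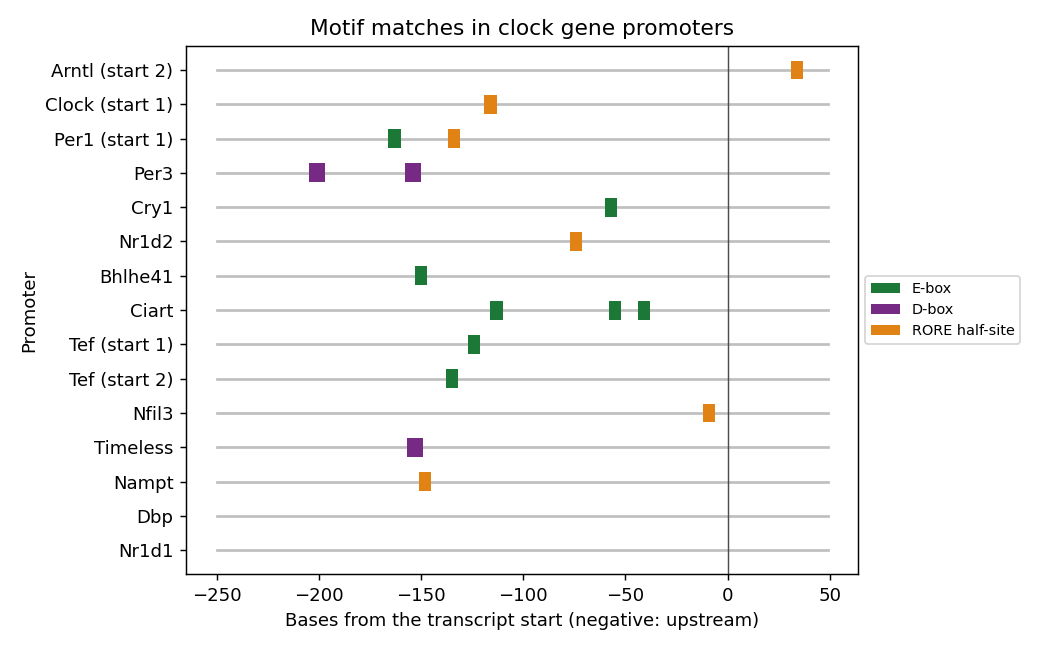
Position of E-box, D-box and RORE half-site matches, in bases from the transcript start (0 is its first base), in each clock gene promoter with a match and in those of Dbp and Nr1d1, which have none. Ciart carries 3 E-boxes and Per3 carries 2 D-boxes.

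The first comparison asked how the clock genes differed between ApoE3 and ApoE4 at 7 dpi. All 10 members stayed within the fold of 1.3 in either direction, with 0 higher and 0 lower in ApoE3. Among all 14123 genes, 3.76% were higher and 4.82% lower, so a count of 0 among 10 is near the background. The widest centred ratios were -0.25 for Per1 and 0.23 for Nr1d2. Arntl stood at -0.09, Clock at 0.10, Per2 at -0.18 and Dbp at -0.07. The ratio of Cry1 was 0.07, that of Cry2 0.16 and that of Nr1d1 0.13. Per3 was level between genotypes, at 0.00 with or without centring. The median over the 10 members was 0.04, against 0.00 over all genes, and became -0.01 when the ratios were centred instead on a list of 10 widely used reference genes, 8 of them listed.

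At 21 dpi the same comparison gave 1 of 8 listed members higher in ApoE3 and 0 lower, beside 7.46% higher and 8.06% lower among all 11470 genes. The member past the fold was Nr1d1, with a centred ratio of 0.50. Before centring its ratio was 0.08, from 42.7 FPKM against 40.4, so it passed the fold only relative to the shift of all genes. Without centring 0 members were higher and 3 lower in ApoE3, beside 2.01% and 58.9% of all genes. Those 3 were Arntl at -0.63, Clock at -0.57 and Cry2 at -0.46, and their centred ratios were -0.20, -0.15 and -0.03. The ratios of Per1, Per2, Cry1 and Dbp, all within the fold, were above 0 with centring, at 0.23, 0.24, 0.23 and 0.09, and below 0 without it, at -0.20, -0.19, -0.20 and -0.34. The median over the 8 members was 0.16 with centring and -0.27 without.

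**Figure D3:**
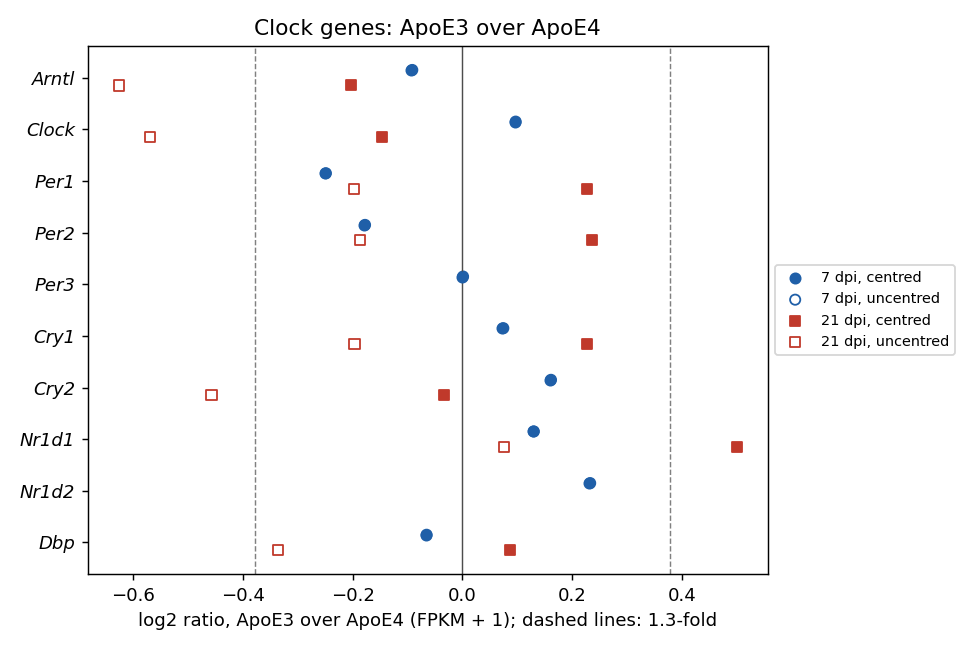
log2 ratio of ApoE3 over ApoE4 for the 10 clock genes at 7 dpi (circles) and 21 dpi (squares), filled after centring on the median of all genes and open before it, with dashed lines at a fold of 1.3. At 7 dpi open and filled points coincide within the lines; at 21 dpi the shift of -0.42 separates them, and Per1, Per2, Cry1 and Dbp change side.

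Several tissues' markers moved with genotype at 21 dpi. The 4 listed skeletal muscle markers of 6 summed to 24.6 FPKM in ApoE3, with Myh4 at 0, and to 598 in ApoE4, where Tnnt3 was the most abundant at 515 FPKM. Schwann cell markers (2 listed of 3) summed to 2092 FPKM for ApoE3 and 1028 for ApoE4, led by Pmp22, with Ncmap at 122 FPKM for ApoE3 and 35.7 for ApoE4. Sensory ganglion markers (3 of 4) summed to 60.8 and 1.35 FPKM, led by Avil, with Scn10a at 20.1 FPKM for ApoE3 and 0.153 for ApoE4 and Trpv1 at 0 in ApoE4. The other ganglion marker, Prph, had 106 and 94.1 FPKM at 7 dpi and no row at 21 dpi. Muscle markers were thus higher in ApoE4 and those of nerve and ganglion in ApoE3. At 7 dpi the 3 muscle markers listed at both time points summed to 52.0 and 31.3 FPKM, and the 2 Schwann cell markers to 703 and 679.

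Smaller sums differed as well. Liver markers, 3 of 3 listed, summed to 7.09 FPKM for ApoE3 and 72.0 for ApoE4, led by Apoa2. Fibroblast markers, 5 of 5 listed, summed to 99.5 FPKM in ApoE3, led by Dcn at 61.9, and 47.2 in ApoE4, where Pdgfrb led and Dcn had 9.37 FPKM. Muscle and other peripheral tissues have clocks of their own, and the part of such RNA in the clock gene values at 21 dpi was not tested. In whole tissue, fewer cells of a type and less RNA per cell cannot be told apart.

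The next comparison asked how the clock genes of the ApoE3 lesion differed between 21 and 7 dpi. Of 8 members listed at both, 5 were higher at 21 dpi (Dbp, Nr1d1, Cry1, Per1 and Cry2) and 1 was lower (Clock), beside 26.6% higher and 27.7% lower among all 10876 genes. Dbp was 3.11 times as high in FPKM at 21 dpi, a centred ratio of 1.53, which exceeded that of 99.4% of all genes. Nr1d1 followed with 0.66, Cry1 with 0.54, Per1 with 0.45 and Cry2 with 0.40. Clock, at -0.82, was the widest in the other direction, and Arntl, its partner, stood within the fold at -0.32. Per2 was within it too, at 0.16, and went to -0.06 when centred on the reference genes. The median over the 8 members was 0.43, against 0.00 over all genes.

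Without centring the same 5 members were higher and the same 1 lower, beside 31.3% and 23.6% of all genes, and the median was 0.52. The count did change with the reference genes. When ratios were centred on the 8 listed reference genes, whose median stood 0.23 above that of all genes, 2 members were higher (Dbp and Nr1d1) and 2 lower (Clock and Arntl), beside 15.4% and 40.2% of all genes. Per1, Cry1 and Cry2 then stood at 0.23, 0.32 and 0.18.

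In ApoE4 the comparison of 21 with 7 dpi gave 2 of 8 members higher, Dbp and Cry2, and 1 lower, Clock, beside 26.1% higher and 28.6% lower among all 10876 genes. Dbp was 3.75 times as high in FPKM at 21 dpi, with a centred ratio of 1.37 that exceeded that of 98.6% of genes. Cry2 had 0.59 and Clock -0.59. Cry1 was just short of the fold, at 0.3781 against 0.3785, and passed it with a pseudocount of 0.1. Nr1d1 stood at 0.28, and on the reference genes Cry1 and Nr1d1 went to -0.03 and -0.14. Arntl at -0.22, Per1 at -0.03 and Per2 at -0.26 turned to 0.31, 0.49 and 0.26 without centring. The median over the 8 members was 0.12, and 0.00 over all genes.

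Scaling moved the ApoE4 count in both directions. Without centring 5 members were higher (Dbp, Cry2, Cry1, Nr1d1 and Per1) and 0 lower, beside 59% and 10.9% of all genes. Centred on the reference genes, whose median stood 0.41 above that of all genes, 1 was higher (Dbp) and 4 lower (Clock, Per2, Arntl and Per1), beside 9.41% and 52.2%. Dbp was higher and Clock lower at 21 dpi in both genotypes under each centring and pseudocount tried. Over those settings Dbp ranged from 1.305 to 1.62 in ApoE3 and from 0.95 to 1.89 in ApoE4. Clock ranged from -1.05 to -0.73 in ApoE3 and from -1.01 to -0.07 in ApoE4, the last of these within the fold.

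**Figure D4:**
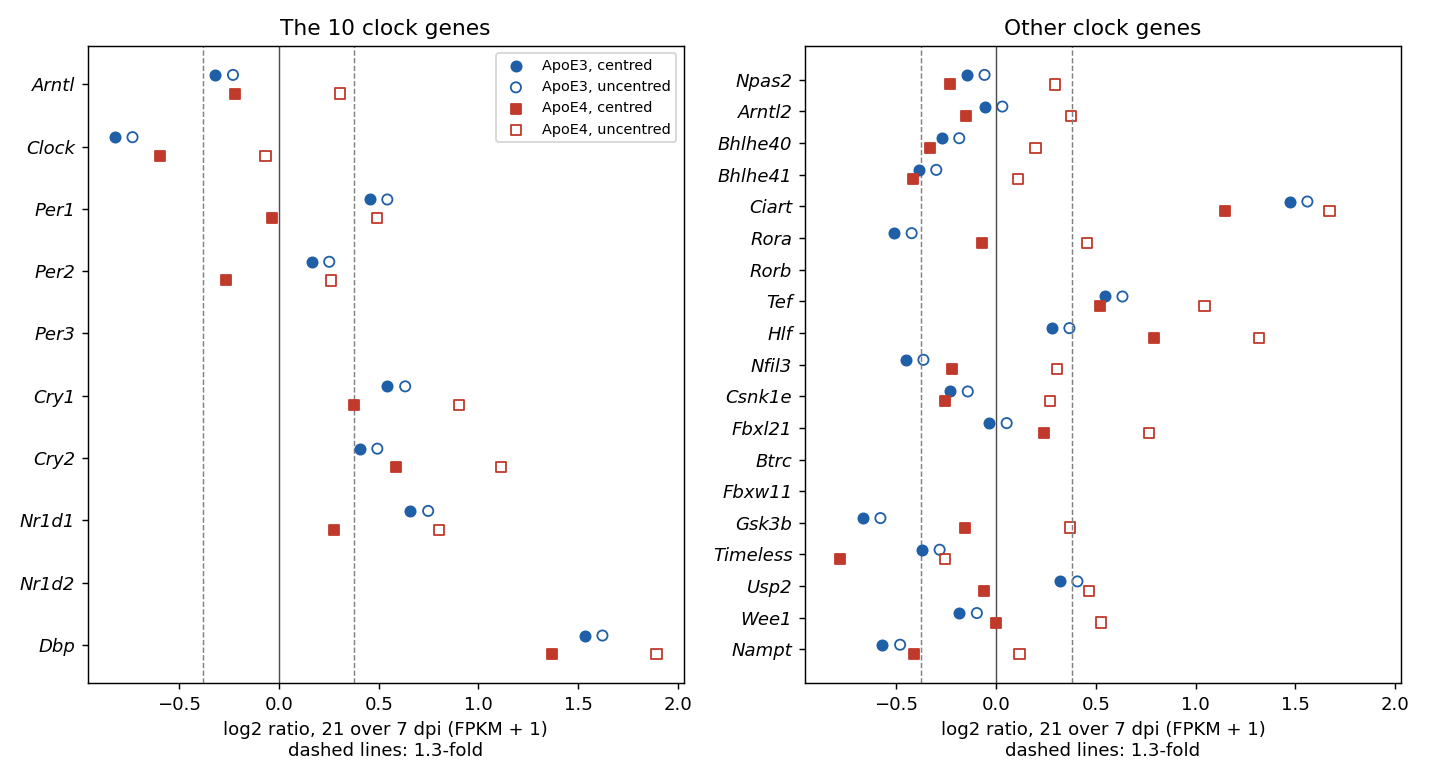
log2 ratio of 21 over 7 dpi in ApoE3 (circles) and ApoE4 (squares) for the 10 clock genes and for the other clock genes, filled after centring on the median of all genes and open before it, with dashed lines at a fold of 1.3. Dbp and Ciart lie farthest to the right in both genotypes under either scale, Arntl, Per1 and Per2 of the members change side in ApoE4 without centring, and genes with no row at 21 dpi have no point.

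A ratio of 2 genes within a group does not depend on the scaling between groups. Dbp and Arntl, which peak in different parts of the day, were nearly equal at 7 dpi, with a log2 ratio of Dbp to Arntl of 0.06 in ApoE3 and 0.04 in ApoE4. At 21 dpi the ratio was 1.91 in ApoE3 and 1.62 in ApoE4, and in plain FPKM, without the pseudocount, Dbp was 3.82 and 3.11 times Arntl. The genotypes lay closer together than the time points.

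The other members listed at both time points were also set against Arntl, a step chosen after the values were seen. Nr1d1 stood at -1.23 in ApoE3 and -1.45 in ApoE4 at 7 dpi, and at -0.25 and -0.96 at 21 dpi. Per1 stood at -0.66 and -0.51 at 7 dpi and at 0.11 and -0.32 at 21 dpi. Clock, by contrast, stood 1.08 and 0.89 above Arntl at 7 dpi and 0.58 and 0.52 above it at 21 dpi. Cry1 stood at -1.67 and -1.84 at 7 dpi and at -0.81 and -1.24 at 21 dpi, and Cry2 at 0.31 and 0.05, then at 1.03 and 0.86. The log2 ratio to Arntl of Dbp, Nr1d1, Per1, Cry1 and Cry2 was thus higher, and that of Clock lower, at 21 dpi in each genotype. Most genes rose against Arntl in this way. The ratio of 21 over 7 dpi of Arntl exceeded that of only 30.7% of all genes in ApoE3 and 36.6% in ApoE4. No fold was applied here, and the narrowest of these differences was that of Per1 in ApoE4, from -0.51 to -0.32. Per2 differed by genotype, with -2.42 at 7 dpi and -1.93 at 21 dpi in ApoE3 but -2.33 and -2.37 in ApoE4.

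**Figure D5:**
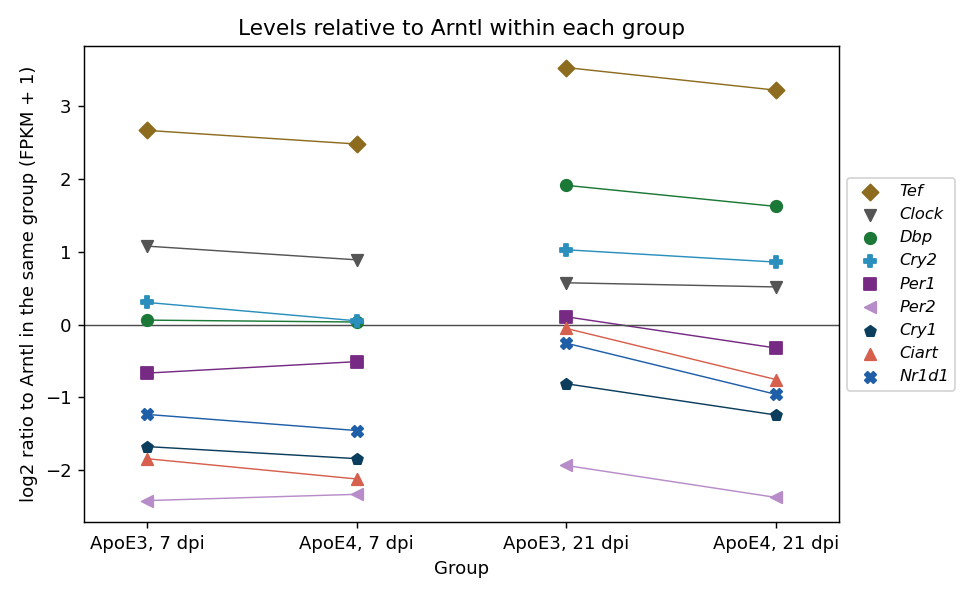
log2 ratio of 9 clock genes to Arntl within each of the 4 groups, with 1 point per gene and group and lines joining the genotypes of a time point. Dbp lies at 0.06 and 0.04 at 7 dpi and at 1.91 and 1.62 at 21 dpi, and Clock is nearer to Arntl at 21 dpi than at 7 dpi.

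Cell markers of the cord also differed between the time points, and their part in the ratios of 21 over 7 dpi was not tested. Over the markers listed at both, those of microglia and macrophages (3 of 5, led by Lyz2 at 7 dpi) summed to 4992 FPKM for ApoE3 and 6544 for ApoE4 at 7 dpi, and to 451 and 862 at 21 dpi. Neuron markers (4 of 5, led by Snap25) summed to 4193 in ApoE3 and 3230.1 in ApoE4 at 7 dpi, and to 6766 and 9839.7 at 21 dpi. Those of oligodendrocytes (3 of 5, led by Mbp) summed to 126687 and 133853 at 7 dpi and to 209780 and 291010 at 21 dpi. All 4 neuron markers had higher FPKM at 21 dpi in both genotypes, with Stmn2 at 167 and 147 FPKM at 7 dpi and 474 and 652 at 21 dpi. Mbp made up most of its sum at both time points, and Lyz2 most of its own at 7 dpi. At 21 dpi Lyz2 had 212 of 451 FPKM in ApoE3 and 426 of 862 in ApoE4. Other markers of those lists did not all follow Lyz2 and Mbp. Aif1 had 274 and 285 FPKM at 7 dpi and 166 and 320 at 21 dpi, and its centred ratio in ApoE4 was -0.36 although the FPKM there was above that at 7 dpi. Mog had 248 and 210 FPKM at 7 dpi and 255 and 372 at 21 dpi, and its centred ratio in ApoE3 was -0.05.

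Fibroblast markers (5 of 5) summed to 446 FPKM for ApoE3 and 564 for ApoE4 at 7 dpi, when Col1a1 led with 212 and 270 FPKM, against 2.44 and 2.27 FPKM of Col1a1 at 21 dpi. Dcn differed from it in ApoE3, with 45.7 and 56.6 FPKM at 7 dpi against 61.9 and 9.37 at 21 dpi, and a centred ratio of 0.34 in ApoE3 and -3.00 in ApoE4. Erythrocyte markers (3 of 3, led by Hba-a1) summed to 218 and 210 FPKM at 7 dpi and 651 and 818 at 21 dpi. Astrocyte markers (5 of 5, led by Gfap) summed to 17009.7 in ApoE3 and 16567 in ApoE4 at 7 dpi, and to 10232 and 18811 at 21 dpi, so their order between genotypes differed by time point, while Aqp4 had 2689 and 2415 FPKM at 7 dpi and 833 and 1472 at 21 dpi. After centring, all 5 ratios of 21 over 7 dpi were below 0 in both genotypes. Past the fold were 4 in ApoE3, beside 27.7% of all genes lower, and 2 in ApoE4, beside 28.6%. Gfap in ApoE4 stood at -0.22, and at 0.31 without centring. For ApoE3 over ApoE4 at 21 dpi all 5 were also below 0 after centring, 2 of them past the fold, beside 8.06% of all genes lower. Endothelial markers (3 of 4, led by Cldn5) summed to 91.0 and 100.1 FPKM at 7 dpi and 91.1 and 112 at 21 dpi, but these sums join markers that went different ways. Cldn5 had 55.0 and 62.2 FPKM at 7 dpi and 69.3 and 87.9 at 21 dpi, whereas Cdh5 and Kdr were lower past the fold at 21 dpi in both genotypes, with centred ratios of -0.73 and -0.80 in ApoE3 and -1.30 and -0.95 in ApoE4. No marker listed at both time points was at 0 in these lists.

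A further 20 genes of the clock were described as a list, of which 19 had a row at 7 dpi and 16 at 21 dpi. Csnk1d had no row, and Rorb, Btrc and Fbxw11 had none at 21 dpi. Between genotypes at 7 dpi 0 were higher and 1 lower in ApoE3, namely Timeless, with 25.7 FPKM for ApoE3 and 33.8 for ApoE4 and a ratio of -0.39, beside 3.76% and 4.82% of all genes. At 21 dpi 1 was higher, Ciart at 0.50, and 0 were lower, beside 7.46% and 8.06%. With a pseudocount of 0.1 or 0.01 1 was lower, Wee1, at -0.39 in place of -0.34. Without centring Ciart stood at 0.08, and 0 of the 16 were higher and 11 lower, beside 2.01% and 58.9% of all genes.

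In the ApoE3 lesion 2 of the 16 genes were higher at 21 than at 7 dpi and 5 lower, beside 26.6% and 27.7% of all genes. In ApoE4 3 were higher and 3 lower, beside 26.1% and 28.6%. These counts lie near those shares or below them. Ciart and Tef were among the higher genes in both genotypes, and Bhlhe41 and Nampt among the lower ones. Scaling mattered here too, since centring on the reference genes gave 1 higher and 9 lower in ApoE3, beside 15.4% and 40.2% of all genes, and 2 higher and 12 lower in ApoE4, beside 9.41% and 52.2%. Without centring 3 were higher and 3 lower in ApoE3, beside 31.3% and 23.6%, with Bhlhe41 within the fold at -0.30, and 7 were higher and 0 lower in ApoE4, beside 59% and 10.9%.

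Of the repressors on that list, Ciart had 16.1 FPKM for ApoE3 and 14.0 for ApoE4 at 7 dpi, and 49.3 and 46.7 at 21 dpi. Its ratios of 21 over 7 dpi, 1.47 in ApoE3 and 1.14 in ApoE4, were next to those of Dbp, and it was higher at 21 dpi under each centring and pseudocount tried. Relative to Arntl within groups, Ciart went from -1.84 in ApoE3 and -2.12 in ApoE4 at 7 dpi to -0.05 and -0.75 at 21 dpi. Its promoter is the one with 3 E-boxes shown above. Bhlhe41, another E-box repressor, had ratios of -0.39 and -0.42, and the latter became 0.11 without centring.

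Among the D-box factors, Tef, a relative of DBP, was abundant, with 387 FPKM for ApoE3 and 363 for ApoE4 at 7 dpi, and 601 and 749 at 21 dpi. Its ratios of 21 over 7 dpi were 0.54 and 0.52. Hlf, the other relative, had 46.5 FPKM for ApoE3 and 37.3 for ApoE4 at 7 dpi, against 60.2 and 94.5 at 21 dpi, with ratios of 0.28 and 0.79. Nfil3 encodes a repressor that competes at the same D-boxes, and its ratios were -0.45 in ApoE3 and -0.22 in ApoE4, the latter turning to 0.31 without centring. Which of these passed the fold depended on the scaling. On the reference genes Tef stood within it, at 0.32 and 0.11, Hlf was at 0.05 and 0.38, and Nfil3 passed it in both genotypes, at -0.68 and -0.63. Without centring Nfil3 was within it in ApoE3, at -0.36.

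Rora encodes a nuclear receptor that activates at the elements where NR1D1 represses. It had 48.2 FPKM for ApoE3 and 43.5 for ApoE4 at 7 dpi, and 35.7 and 60.0 at 21 dpi, with ratios of 21 over 7 dpi of -0.51 and -0.07, the second turning to 0.46 without centring.

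Csnk1e, which encodes a kinase that marks PER proteins for breakdown, was the most abundant gene of the list. It had 1034 FPKM for ApoE3 and 956 for ApoE4 at 7 dpi, and 937 and 1154 at 21 dpi, and stayed within the fold after centring on all genes. Btrc, for a ligase subunit that acts on PER proteins, had 262 and 272 FPKM at 7 dpi, and Fbxw11, for a related subunit, had 241 and 229.

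Of the rest, Gsk3b, a kinase gene, had a ratio of 21 over 7 dpi of -0.67 in ApoE3 and -0.16 in ApoE4, and 0.37 in ApoE4 without centring. Timeless had -0.37 in ApoE3 and -0.78 in ApoE4, the latter -0.25 and within the fold without centring. On the reference genes Timeless passed the fold in both genotypes, at -0.60 and -1.19. Nampt, for an enzyme of NAD synthesis under clock control, had -0.57 and -0.41, the latter 0.12 without centring.

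Genes most like the mean profile of 4 members were looked for among 10853 genes. These had a mean FPKM of 1 or more and a row at both time points, and members were left out. The reference was the mean profile over the 4 groups of Per1, Per2, Nr1d1 and Dbp, and likeness was the Euclidean distance between log2(FPKM + 1) values, each minus the gene's own mean. Those members differed among themselves, with uncentred ratios of 21 over 7 dpi in ApoE3 of 1.62 for Dbp and 0.25 for Per2. A gene near their mean need not be like any of them. The nearest 5 were Lypla2 at 0.05, Ddx55 at 0.05, Nrarp at 0.06, Eci1 at 0.06 and 2810013P06Rik at 0.06. Lypla2, for example, had 105 FPKM for ApoE3 and 107 for ApoE4 at 7 dpi, and 174 and 199 at 21 dpi. Of the 10853 genes 43 lay within a distance of 0.1. The profiles were not centred between groups, so the general shift of ApoE4 at 21 dpi is part of them.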

How the data were processed

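The authors deposited FPKM plus 1 per gene for each genotype and time point, and 1 was taken off before use. Per the study's methods and the submitters' processing notes, they brought libraries to a common number of reads and ran STAR 2.5.4b, Bowtie2 (2.1.10 in the notes), SAMtools 0.1.7 and Cuffdiff 1.3.0, with 3 mice per group. The library kit was TruSeq RNA v2. By the study's methods, 1 replicate had a clearly lower share of aligned reads than the others. Its group is not given in the sources used here. The genome build is not given in the sources used here. The deposited tables also hold the authors' own fold changes, p-values, q-values and significance marks, and a list of changed genes. None of these was used.

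All 25601 rows (14127 at 7 dpi, 11474 at 21 dpi) had the status Ok, and 2 symbols on 2 rows at each time point were left out. No value column was without a group. No test was run. Log2 ratios used a pseudocount of 1, centring and a fold of 1.3. Alternatives were pseudocounts of 0.1 and 0.01, no centring, centring on a list of 10 reference genes (8 listed), folds of 1.5 and 2, and a minimum mean FPKM of 1 for members.

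The members and all lists (other clock genes, glucocorticoid-responsive genes, reference genes and markers of neurons, astrocytes, oligodendrocytes, microglia and macrophages, endothelium, fibroblasts, skeletal muscle, Schwann cells, sensory ganglia, liver and erythrocytes) were chosen with earlier results of these data known. A few genes first chosen for these lists are not reported here and enter no count or sum of a list. Named were all members, other clock genes past the fold in a comparison or among the 4 highest in mean FPKM, the gene with the highest mean FPKM and the gene with the widest ratio in any comparison of each other list but the reference genes, and the 5 genes nearest in profile. Genes whose exons overlap Dbp or Nr1d1, and ratios to Arntl other than that of Dbp, were chosen after values were seen. Further marker genes printed were also chosen then. Promoters are from RefSeq GRCm38.p6, and exon overlaps from GENCODE vM21. Python 3.11.15, numpy 2.4.6, pandas 2.3.3 and matplotlib 3.10.9 were used, and the ratios were checked on simulated data.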

Additional observations from a re-analysis of the deposited data

Results flagged for a closer look

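For 5 of the 8 clock genes listed at both time points, the centred log2 ratio of ApoE3 over ApoE4 had a different sign at 7 and 21 dpi. Of all 10876 genes listed at both, 51.8% had such a change of sign, so 5 of 8 is near the share of all genes. With 1 value per group none of these differences was tested. The ratio at 21 dpi minus that at 7 dpi was 0.48 for Per1, which went from -0.25 to 0.23, and 0.42 for Per2, which went from -0.18 to 0.24. It was -0.24 for Clock, -0.19 for Cry2 and 0.15 for Dbp. Without centring these differences were 0.05 for Per1, -0.00963 for Per2, -0.67 for Clock, -0.62 for Cry2 and -0.27 for Dbp. In 0 of the 5 were both ratios past the fold of 1.3, and without centring 2 of the 5, Clock and Cry2, still had opposite signs, as did Cry1.

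Seen the other way, Per1 and Per2 had centred ratios of 21 over 7 dpi of opposite sign in the genotypes, which are 2 of the 8, beside 16.5% of all genes. The ratio in ApoE4 minus that in ApoE3 was -0.49 for Per1 and -0.43 for Per2, and these rest on the same 4 values per gene as the differences above. Without centring the ratios of both genes were above 0 in both genotypes, with 0.54 in ApoE3 and 0.49 in ApoE4 for Per1 and 0.25 and 0.26 for Per2. Arntl then had opposite signs, with -0.23 in ApoE3 and 0.31 in ApoE4, and was 1 of the 8, beside 25.5% of all genes.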

How the results depend on the processing

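With a single value per group, no replicate could be left out. Pseudocounts of 0.1 and 0.01 changed no count of members, no median over them and no ratio of Dbp to Arntl by over 1.5 times or in sign. The minimum mean FPKM of 1 could remove no member, since the lowest value of any was 10.4 FPKM, for Per2 in ApoE3 at 7 dpi. Both pseudocounts moved 1 count of the other clock genes, those lower in ApoE3 at 21 dpi, from 0 to 1 (Wee1), and changed those lower at 21 than at 7 dpi in ApoE3 from 5 to 6 (Timeless). Settings for the other clock genes, and for differences between ratios, were chosen after seeing the data.

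Without centring, ApoE3 over ApoE4 at 21 dpi gave 0 members higher and 3 lower with a median of -0.27, and ApoE4 at 21 over 7 dpi gave 5 higher and 0 lower with a median of 0.65. Centring on the reference genes moved the median at 7 dpi to -0.00779. It gave 2 higher, 2 lower and a median of 0.20 for ApoE3 at 21 over 7 dpi, and 1 higher, 4 lower and a median of -0.29 for ApoE4. A fold of 1.5 left 0 members higher in ApoE3 at 21 dpi (3.53% of all genes) and 2 higher for ApoE3 at 21 over 7 dpi (16.2%). A fold of 2 left 0 higher in ApoE3 at 21 dpi (1.37%), 1 higher and 0 lower for ApoE3 at 21 over 7 dpi (4.45% and 8.51%), and 1 higher and 0 lower for ApoE4 (5.09% and 9.06%). The member left at a fold of 2 was Dbp.

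Among single genes 2 past the fold turned without centring, Bhlhe41 to 0.11 and Nampt to 0.12, both for ApoE4 at 21 over 7 dpi. Of the other values of single genes and of the list of other clock genes, 711 were classed as the same. Another 47 were past the main fold but within that of the setting. Of those 47, 14 came from the fold of 1.5 and 21 from the fold of 2, where only the limit rose. No centring and centring on the reference genes gave 6 each. A further 40 passed the fold without a change of sign, and 59 moved otherwise. The 711 include 109 under the minimum mean FPKM of 1. They also include counts that changed little, such as that from 5 to 6 for genes lower at 21 dpi in ApoE3. The 59 include values past the fold after a change of sign, such as Per1 at 0.49 for ApoE4 at 21 over 7 dpi without centring. The unknown depth per gene, the unknown hour of tissue collection and the lack of replicates limit the ratios given here, and the general shift limits those between groups other than ApoE3 over ApoE4 at 7 dpi.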

Other observations

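Glucocorticoid hormone follows a daily course and acts on Per1, so a list of 11 glucocorticoid-responsive genes was described beside the clock genes, of which 11 had a row at 7 dpi and 10 at 21 dpi. Sgk1, a kinase gene induced by the hormone, had 209 FPKM for ApoE3 and 276 for ApoE4 at 7 dpi, and was the 1 gene of the list lower in ApoE3 there, with 0 higher, beside 4.82% and 3.76% of all genes. At 21 dpi Cdkn1a was the 1 gene higher in ApoE3 after centring, with 53.5 FPKM for ApoE3 and 50.1 for ApoE4, and 0 were lower, beside 7.46% and 8.06%, whereas without centring 0 were higher and 7 lower, beside 2.01% and 58.9% of all genes. Between time points 1 gene was higher and 2 were lower at 21 dpi in ApoE3, beside 26.6% and 27.7% of all genes, and 2 were higher and 3 lower in ApoE4, beside 26.1% and 28.6%. Without centring the ApoE3 counts were the same, and in ApoE4 5 were higher and 0 lower, beside 59% and 10.9%. Zbtb16 had 11.3 FPKM for ApoE3 and 10.7 for ApoE4 at 7 dpi, and 6.10 and 8.67 at 21 dpi. Mt1, a metallothionein gene and the most abundant of the list, went the other way, with 1462 and 1422 FPKM at 7 dpi and 2205 and 3726 at 21 dpi. The median centred ratio of the 10 genes for 21 over 7 dpi was -0.02 in ApoE3 and -0.15 in ApoE4, and without centring it was 0.07 and 0.37.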
